A study of Mus musculus with 6 samples.

Results

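The insulin-like growth factor (IGF) axis was followed in mouse muscle satellite cells through 10 genes, taken by name from the deposited table: the binding protein genes Igfbp2 to Igfbp7, the ligand gene Igf1, the receptor genes Igf1r and Insr, and the adaptor gene Irs1. All 10 were among the 23420 genes listed. The compared groups were 3 Dnmt1 KO libraries and 3 control libraries, made from polyadenylated RNA of skeletal muscle satellite cells, the stem cells that repair muscle fibres. Per the labels, all animals were C57BL/6 males 7 weeks of age, and the lines combined Pax7-CreERT2, a tamoxifen-activated Cre recombinase expressed from the Pax7 gene, with floxed Dnmt1. Dnmt1 encodes the enzyme that restores methylation on newly copied DNA. Tamoxifen or vehicle was given on 5 days in a row, but the labels do not say which group had which, nor if Cre was present in control mice. No label says if each library came from its own animal, and p-values therefore measure the spread between libraries, part of which may be technical.

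IGF-I and IGF-II are secreted growth factors that act mainly through the IGF-I receptor, a tyrosine kinase closely related to the insulin receptor. The activated receptor phosphorylates adaptors such as IRS1, which pass the signal to PI3K, AKT and mTOR, and the same signal holds FOXO transcription factors out of the nucleus. IGF-binding proteins hold the ligands outside the cell and can either block them or carry them to the receptor. In muscle the axis is known for promoting both the proliferation of myoblasts and their differentiation into fibres.

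Values are the authors' scaled read counts, in which 1 read is worth 0.691 to 1.43 units depending on the library. The libraries held 954786 to 1347051 reads in Dnmt1 KO and 1403242 to 2021725 reads in controls, so genes with values of a few units rest on a few reads. Dnmt1 itself had 74.6, 36.1 and 81.2 in the Dnmt1 KO libraries against 614, 539 and 655 in the controls, so its transcript was lower in each library labelled Dnmt1 KO. All 12 satellite cell and myoblast markers were in the table, and Pax7 and Myod1 were above 0 in all 6 libraries. Pax7, the transcription factor that defines satellite cells and the gene whose promoter drives Cre here, fell to 64.5, 58.2 and 66.5 in Dnmt1 KO, against 124, 99.04 and 120.3 in controls (adjusted p = 0.0441, limma). It was the 1 of 11 tested markers of this list that passed, where 1.76% of all genes tested were called. Myf5 had 212, 147 and 241 in Dnmt1 KO against 332, 242 and 467 in controls. Myod1 had 1394, 1096 and 1209 in Dnmt1 KO against 1534, 1704 and 1451 in controls. These 2 did not pass (limma, adjusted p = 0.184 and 0.331). In 3 of the 11, Pax7, Myf5 and Myod1, every Dnmt1 KO library lay below every control, where 7.81% of all genes tested did. Of the 11, 6 had a positive log2 fold change, with a median of 0.09. The libraries differed in how much muscle differentiation they held: the mean log2 value of 22 contractile genes was 6.63, 6.56 and 4.07 in Dnmt1 KO replicates 1 to 3 against 3.90, 7.81 and 3.05 in control replicates 1 to 3. Control replicate 2 thus stood apart from the other controls, and Dnmt1 KO replicate 3 from the other Dnmt1 KO libraries. Calls of members that turn on control replicate 2 are given with and without it. Lists of other pathway genes are given with all 6 libraries. With all 6, 3 of the 70 pathway genes tested were called higher, and 8 of 68 without control replicate 2 (limma). Without that library, every Dnmt1 KO library has a higher contractile level than every control, so that omission cannot tell group and contractile level apart. The same holds with both replicate 2 libraries left out. In bulk RNA of this kind, fewer cells of a type and less RNA per cell cannot be told apart.

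The promoters of the members that the comparison turns on are shown because the product of Dnmt1, the gene targeted here, maintains methylation at CG dinucleotides. Methylation itself was not measured. Windows of 300 bases, from 250 before to 50 after the start of transcription, came from RefSeq (GRCm38.p6) and were found for 9 members, Igfbp2 with a pair of them, making 10 windows. They are written 5′ to 3′ on the strand of the gene with each CG in capitals. The 4 members whose groups did not overlap are Igfbp4 (chr11:99040994-99041293, plus strand), Igfbp7 (chr5:77407996-77408295, minus strand), Igfbp3 (chr11:7213874-7214173, minus strand) and Irs1 (chr1:82291390-82291689, minus strand). Igfbp5 (chr1:72874816-72875115, minus strand), the member with the largest SE of its log2 fold change, is set beside them.
Igfbp4: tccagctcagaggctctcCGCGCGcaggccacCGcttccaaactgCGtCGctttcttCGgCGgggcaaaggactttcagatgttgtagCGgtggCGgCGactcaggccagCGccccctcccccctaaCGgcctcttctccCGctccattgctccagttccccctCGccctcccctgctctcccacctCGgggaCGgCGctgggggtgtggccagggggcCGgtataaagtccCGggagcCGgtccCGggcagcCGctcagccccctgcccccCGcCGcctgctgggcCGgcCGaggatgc
Igfbp7: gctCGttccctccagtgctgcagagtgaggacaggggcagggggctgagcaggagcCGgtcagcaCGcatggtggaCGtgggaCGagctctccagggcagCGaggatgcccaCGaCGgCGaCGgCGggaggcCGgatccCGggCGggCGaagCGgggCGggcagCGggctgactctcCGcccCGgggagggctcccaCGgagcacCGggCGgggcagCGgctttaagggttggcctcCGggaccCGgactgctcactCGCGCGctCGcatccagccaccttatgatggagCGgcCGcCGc
Igfbp3: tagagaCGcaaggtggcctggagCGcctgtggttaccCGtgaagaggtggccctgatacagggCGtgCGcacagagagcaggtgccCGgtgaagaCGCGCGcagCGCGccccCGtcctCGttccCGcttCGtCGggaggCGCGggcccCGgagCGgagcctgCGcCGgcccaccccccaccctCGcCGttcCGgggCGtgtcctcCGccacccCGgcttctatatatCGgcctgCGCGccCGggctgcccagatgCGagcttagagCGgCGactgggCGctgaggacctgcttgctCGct
Irs1: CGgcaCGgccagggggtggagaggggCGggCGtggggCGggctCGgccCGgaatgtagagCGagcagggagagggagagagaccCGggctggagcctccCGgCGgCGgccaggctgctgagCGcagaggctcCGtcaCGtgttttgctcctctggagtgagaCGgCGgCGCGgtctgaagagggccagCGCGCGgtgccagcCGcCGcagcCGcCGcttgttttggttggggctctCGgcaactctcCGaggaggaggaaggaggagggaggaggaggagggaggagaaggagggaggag
Igfbp5: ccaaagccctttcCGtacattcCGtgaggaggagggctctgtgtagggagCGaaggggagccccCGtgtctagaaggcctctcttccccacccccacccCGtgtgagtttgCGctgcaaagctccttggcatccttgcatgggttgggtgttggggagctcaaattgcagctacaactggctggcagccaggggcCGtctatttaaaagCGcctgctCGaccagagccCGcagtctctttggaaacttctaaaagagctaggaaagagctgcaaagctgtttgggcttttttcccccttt

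The Igfbp4 window held 27 CG dinucleotides, a number reached by 15.5% of the 32851 mouse promoter windows. The Igfbp7 window held 33 (reached by 8.56%), that of Igfbp3 held 37 (5.58%) and that of Irs1 held 28 (14.2%). The members that were higher and those that were lower in the Dnmt1 KO libraries thus both had windows dense in CG, against a median of 7 over all windows. The Igf1r window was the densest with 48 CG (1.22%), while Igfbp5, Igfbp6 and Igf1 had 10, 8 and 6. Searched on both strands, the TATA-type motif TATAAA occurred in the windows of Igfbp4 and Igfbp6 and in 13.6% of all windows. The E-box motif CANNTG, the type of site that myogenic factors bind, occurred in 72.3% of all windows and in those of every member matched except Igfbp7 and Igf1r. The GC-box motif GGGCGG, which contains a CG, occurred 4 times in the Igfbp7 window, 3 times in 1 of the Igfbp2 windows and 2 times each in those of Irs1 and Igf1r, and in 35.7% of all windows. A match of letters is a description of the window and shows no binding.

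Between the groups, 1 of the 10 members, Igfbp4, passed the test as higher in Dnmt1 KO and 0 passed as lower (limma on log2 values, adjusted p under 0.05 over 12591 genes tested). Over all genes tested, 1.76% were called, 1.67% as higher and 0.0953% as lower. At an unadjusted p under 0.05, 2 members were higher (Igfbp4 and Igfbp7) and 2 lower (Igfbp3 and Irs1), and in these same 4 members the values of the groups did not overlap. Of all genes tested, 15.5% had an unadjusted p under 0.05 and 21.2% had groups that did not overlap. A positive log2 fold change was found in 5 of the 10 members, with a median of 0.06, against a median of 0.02 over all genes tested. The log2 fold changes of the members thus had both signs. Of the binding protein genes, Igfbp2 and Igfbp3 had negative ones, and only Igfbp4 passed.

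**Figure D1:**
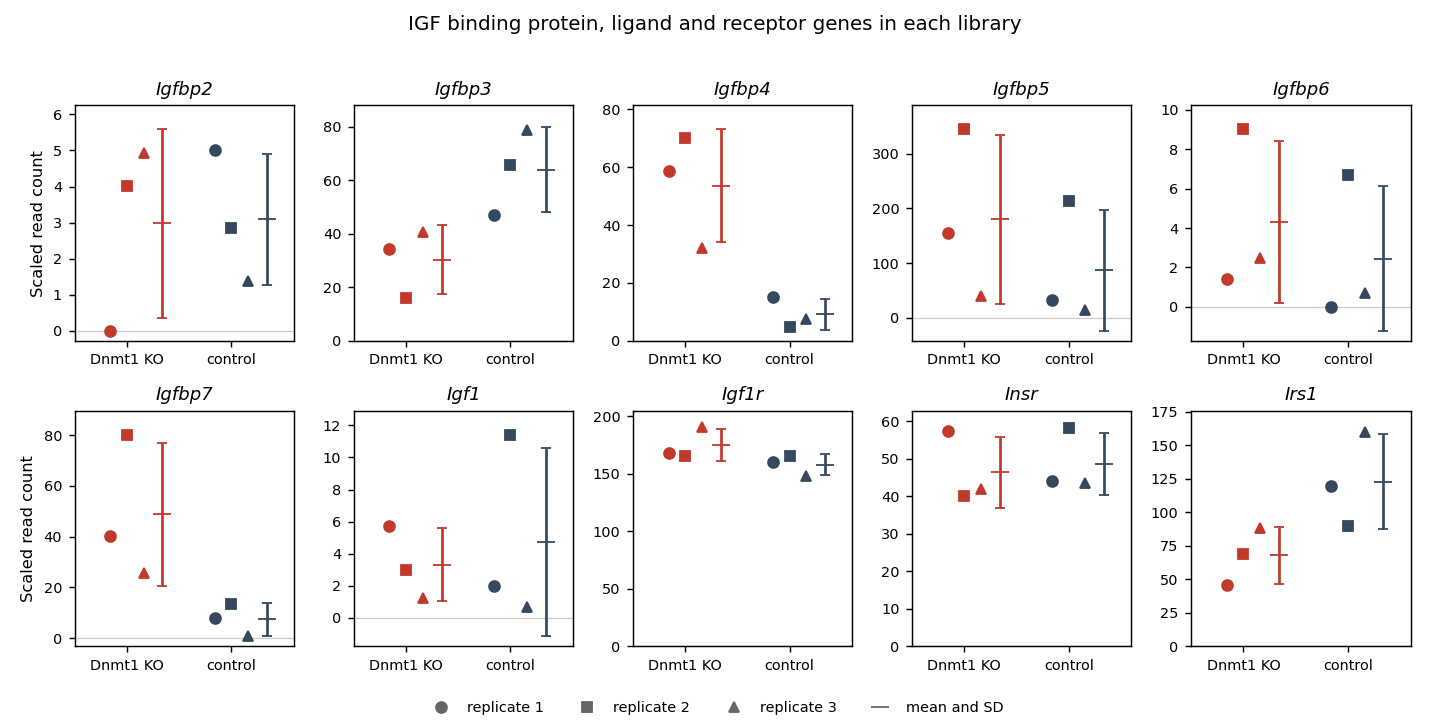
Scaled read counts (y axis) of the 10 members in the 3 Dnmt1 KO libraries (red, left) and the 3 control libraries (dark blue-grey, right), with the mean and SD of each group beside the points. Igfbp4 and Igfbp7 lie higher in every Dnmt1 KO library than in any control, Igfbp3 and Irs1 lower, and Igf1r and Insr lie close together in all 6.

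Igfbp4 encodes a binding protein that, in cell culture, mostly restrains IGF action. It had 58.8, 70.2 and 32.0 in Dnmt1 KO replicates 1 to 3 against 15.05, 4.76 and 7.61 in control replicates 1 to 3. Each Dnmt1 KO library stood above each control, and the lowest of them, replicate 3, was still above the highest control. Igfbp4 rose to 53.7 ± 19.6 in Dnmt1 KO cells, against 9.14 ± 5.31 in control cells (SD, n = 3 each), a ratio of means of 5.87. On the log2 scale the difference was 2.49 with an SE of 0.43 (limma, adjusted p = 0.0232). The authors' deposited table gives Igfbp4 a q-value of 1.02e-05, where 2.78% of the genes tested here have a q-value under 0.05. Igfbp4 occupies 99041260 to 99052643 of chromosome 11 in mm10 (plus strand, 4 exons listed). Its call was lost when Dnmt1 KO replicate 1 (adjusted p = 0.126), Dnmt1 KO replicate 2 (adjusted p = 0.142) or control replicate 3 (adjusted p = 0.0766) was left out, while the log2 fold change stayed between 2.15 and 2.88 over all 6 omissions. With both replicate 2 libraries left out it was 1.92 (adjusted p = 0.0117).

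Igfbp4 and the contractile genes were high together within the Dnmt1 KO group, where replicates 1 and 2 exceeded replicate 3 in both, but not among the controls. Control replicate 2, which had the highest contractile level, had the lowest Igfbp4 value of the 6 libraries. With the contractile level as a covariate, chosen after the data were examined, the log2 fold change was 2.53 (adjusted p = 0.00247, limma). The genes whose centred log2 values lay closest to those of Igfbp4 over the 6 libraries were Rps4y2, Capg and Cotl1, with mean absolute differences of 0.12, 0.16 and 0.19. Capg encodes an actin-capping protein and Cotl1 an actin-binding protein. Capg had 133, 206 and 122 in Dnmt1 KO against 44.1, 16.2 and 26.3 in controls.

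Igfbp7 encodes a secreted protein that carries the domain of the family but binds IGFs only weakly. It had 40.1, 80.3 and 25.8 in the Dnmt1 KO libraries against 8.03, 13.3 and 0.691 in the controls, so the groups did not overlap. The control value of 0.691 is worth 1 read. The means were 48.8 ± 28.2 in Dnmt1 KO and 7.35 ± 6.35 in controls (SD, n = 3 each), a ratio of 6.63. The log2 fold change of 2.89 carried an SE of 0.73 and did not pass (adjusted p = 0.0892, limma, 95% confidence interval 1.28 to 4.51). In the authors' deposited table Igfbp7 has a q-value of 0.0017. Igfbp7 passed in 4 of 19 alternative settings. Without control replicate 2 it rose by 3.52 on the log2 scale (limma, adjusted p = 0.00423). With the contractile covariate it rose by 2.49 (limma, adjusted p = 0.00805). With any other single library left out it did not pass. Without control replicate 3, the library with 1 read, the log2 fold change was 1.98 (adjusted p = 0.135), below that of Igfbp4 without the same library (2.43). Igfbp7 lies on chromosome 5 at 77349240 to 77408045 (minus strand, 6 exons listed). Its exons share 89 bases with those of Polr2b, an RNA polymerase subunit gene on the opposite strand. The library kit kept strand, but no source used here gives the strand setting of the counting. Polr2b had 238, 244 and 263 in Dnmt1 KO against 257, 316 and 305 in controls. The part of Polr2b reads in the Igfbp7 values was not tested.

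Igfbp3 encodes the main carrier of IGFs in blood serum. It had 34.4, 16.1 and 40.6 in the Dnmt1 KO libraries against 47.1, 65.7 and 78.8 in the controls. Every Dnmt1 KO value lay below every control value, with the gap between Dnmt1 KO replicate 3 and control replicate 1 small. The means were 30.4 ± 12.8 in Dnmt1 KO and 63.9 ± 15.9 in controls (SD, n = 3 each). With a log2 fold change of -1.12 and an SE of 0.35, Igfbp3 did not pass (limma, adjusted p = 0.1602, 95% confidence interval -1.89 to -0.34). The fold change was negative in all 19 alternative settings, from -1.37 to -0.69, and it passed in 0 of them. Igfbp3 lies on chromosome 11 at 7206091 to 7213923 (minus strand). Igfbp1, a binding protein gene expressed mainly in liver, was at 0 in all 6 libraries.

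Igfbp5, which encodes a binding protein known to be induced when mouse myoblasts differentiate, varied more within the groups than between them. Its values were 155, 345 and 39.4 in Dnmt1 KO replicates 1 to 3 against 32.1, 213 and 14.5 in control replicates 1 to 3. The values were high in Dnmt1 KO replicates 1 and 2 and in control replicate 2, the same 3 libraries in which the contractile genes were highest. Means were 179.8 ± 154 in Dnmt1 KO and 86.6 ± 110.1 in controls (SD, n = 3 each), and the log2 fold change of 1.44 had a 95% confidence interval from -0.64 to 3.51 (adjusted p = 0.499, limma). Without control replicate 2 the log2 fold change was 2.52 and passed as higher (adjusted p = 0.0254). With the contractile level as a covariate it was 0.75 (adjusted p = 0.157), and the part of differentiation in the Igfbp5 values was not tested beyond this fit. With both replicate 2 libraries left out it was 1.81 and passed (adjusted p = 0.0335). On the 4 libraries used for count tests, edgeR gave -0.25 (adjusted p = 0.982), DESeq2 gave -0.28, and limma gave 0.46 (adjusted p = 0.9698). Of 19 alternative settings, 17 gave Igfbp5 a positive difference and 3 put it past the threshold. It lies on chromosome 1 at 72858065 to 72874865, beside Igfbp2 (72824480 to 72852471).

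**Figure D2:**
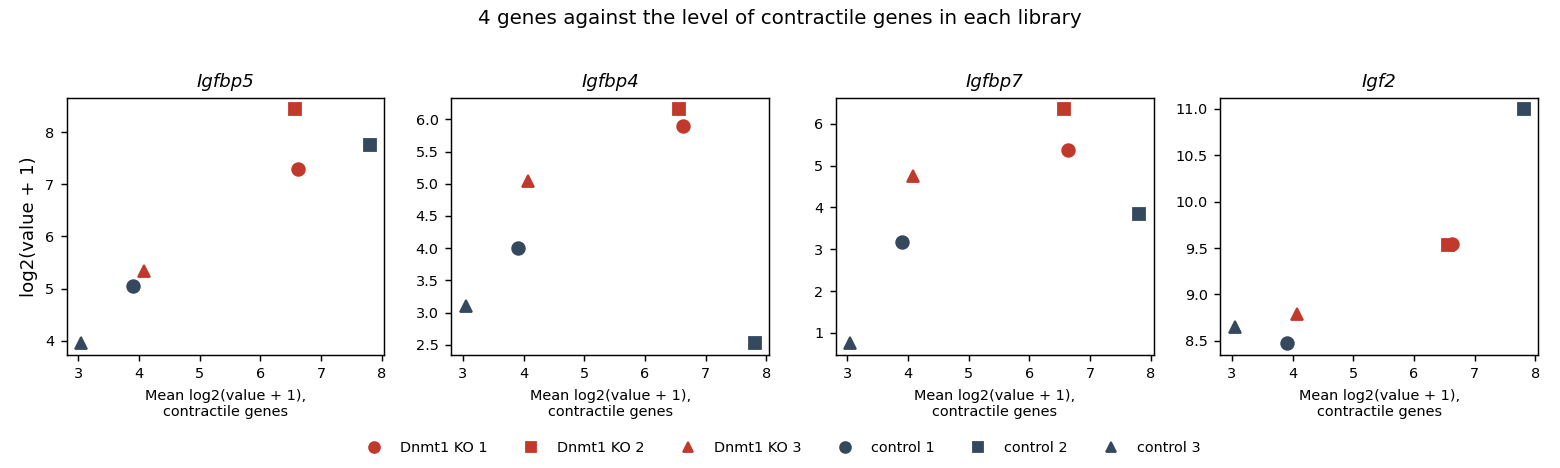
Log2(value + 1) of Igfbp5, Igfbp4, Igfbp7 and Igf2 (y axes) against the mean log2(value + 1) of 22 contractile genes (x axis), 1 point per library, Dnmt1 KO red and control dark blue-grey. Igfbp5 and Igf2 are highest in the 3 libraries with contractile means of 6.56 to 7.81, while Igfbp4 is lowest in control replicate 2, which has the highest contractile mean.

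Igfbp6, whose product prefers IGF-II over IGF-I, and Igfbp2 were near the limit of detection. Igfbp6 had 1.43, 9.03 and 2.46 in Dnmt1 KO against 0, 6.67 and 0.691 in controls, and was highest in replicate 2 of both groups (log2 fold change 0.90, adjusted p = 0.632, limma). The 0 of control replicate 1 allows a value of up to 3.01, the worth of 3 reads there. Igfbp2 had 0, 4.01 and 4.92 in Dnmt1 KO against 5.02, 2.86 and 1.38 in controls, and the groups overlapped (log2 fold change -0.30, adjusted p = 0.877, limma). The 0 in Dnmt1 KO replicate 1 allows up to 4.30. These limits cover counting error only. For both genes the 95% confidence intervals of the log2 fold change, -0.91 to 2.71 for Igfbp6 and -1.91 to 1.31 for Igfbp2, are wide: they take in several-fold higher values for Igfbp6, and changes in both directions for Igfbp2.

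The make-up of the binding protein transcripts is described here for each library, without a test between the groups. Per kb of listed exon length, Igfbp7 was the highest of all 10 members in each Dnmt1 KO library, whereas it ranked 5, 4 and 8 in control replicates 1 to 3. Igfbp3 ranked 4, 7 and 2 in the Dnmt1 KO libraries and 1, 2 and 1 in the controls. Of the summed value per kb of the 6 Igfbp genes, Igfbp7 took 34.0 ± 3.14% in Dnmt1 KO and 10.02 ± 7.57% in controls, and Igfbp4 took 23.5 ± 4.11% in Dnmt1 KO and 9.65 ± 7.22% in controls (SD, n = 3 each). The share of Igfbp3 was 13.7, 3.74 and 25.3% in the Dnmt1 KO libraries against 45.5, 32.0 and 79.5% in the controls. For each of these 3 genes the shares of the groups did not overlap. Their scaled counts, from which the shares are made, did not overlap either, so the shares add no separate result. For scaled counts, 21.2% of all genes tested had groups that did not overlap. The share of Igfbp5 was 23.1 ± 11.9% in Dnmt1 KO and 20.8 ± 19.9% in controls, and the groups overlapped. The summed value per kb was 103, 176 and 65.8 in the Dnmt1 KO libraries against 42.5, 83.97 and 40.6 in the controls, where control replicate 2 lay above Dnmt1 KO replicate 3. Shares of one sum depend on each other, and they were not tested.

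**Figure D3:**
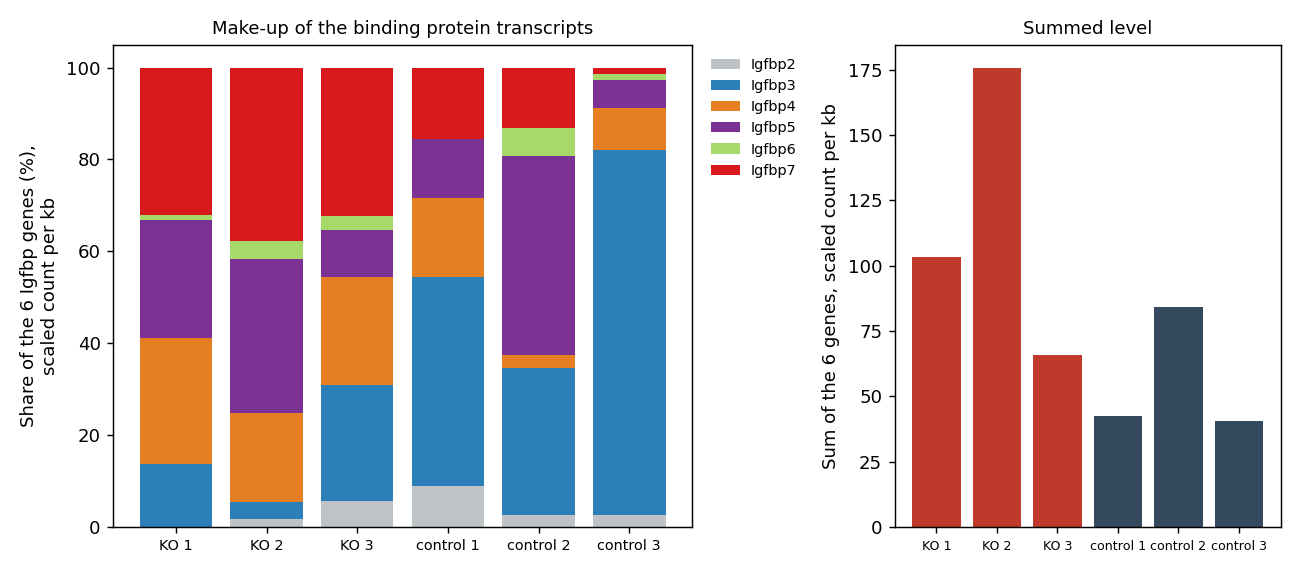
Left, the share (%) of each of the 6 Igfbp genes in their summed scaled count per kb, for each library. Right, that sum in scaled counts per kb, with Dnmt1 KO red and control dark blue-grey. Igfbp7 (red part) and Igfbp4 (orange part) take more of each Dnmt1 KO bar than of any control bar, and Igfbp3 (blue part) takes less.

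The ligand gene Igf1 was hardly expressed. It had 5.73, 3.01 and 1.23 in Dnmt1 KO against 2.01, 11.4 and 0.691 in controls, and its groups overlapped (log2 fold change -0.02, 95% confidence interval -1.69 to 1.65, adjusted p = 0.993, limma). Its level per kb, 0.425 ± 0.290 in Dnmt1 KO and 0.602 ± 0.749 in controls (SD, n = 3 each), was the lowest of the 10 members in both groups. The other ligand gene, Igf2, an imprinted gene that differentiating myoblasts express strongly, had 746, 738 and 443 in Dnmt1 KO against 355, 2039.9 and 401 in controls. Igf2 was highest in control replicate 2 and missed the threshold, at -0.08 on the log2 scale (limma, adjusted p = 0.9598), and without that library the difference was 0.73 (adjusted p = 0.0607). Its receptor gene Igf2r, whose product removes IGF-II from the cell surface, had 427, 380 and 375 in Dnmt1 KO against 298, 609 and 305 in controls (log2 fold change 0.05, adjusted p = 0.953).

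The receptor genes were the most even of the members. Igf1r had 168, 166 and 191 in Dnmt1 KO against 161, 166 and 148 in controls, which averages to 174.7 ± 14.0 in Dnmt1 KO and 158 ± 9.12 in controls (SD, n = 3 each). Its log2 fold change of 0.14 had a 95% confidence interval from -0.18 to 0.47 (adjusted p = 0.680, limma), so a doubling or halving of Igf1r lay outside it. Insr, the insulin receptor gene, had 57.3, 40.1 and 41.8 in Dnmt1 KO against 44.1, 58.1 and 43.6 in controls (log2 fold change -0.07, 95% confidence interval -0.59 to 0.45, adjusted p = 0.914, limma). Per kb, Igf1r stood at 2.28, 3.22 and 3.56 times the level of Insr in the Dnmt1 KO libraries and at 2.84, 2.23 and 2.65 times in the controls. These ratios overlapped between the groups.

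Irs1 encodes an adaptor that the activated receptors phosphorylate. It had 45.9, 69.2 and 88.6 in the Dnmt1 KO libraries against 119, 89.5 and 159.7 in the controls. The groups did not overlap, but Dnmt1 KO replicate 3 and control replicate 2 were nearly equal. Means were 67.9 ± 21.4 in Dnmt1 KO and 123 ± 35.2 in controls (SD, n = 3 each), with a log2 fold change of -0.86 (SE 0.28, adjusted p = 0.175, limma), which did not pass. Without control replicate 2 it passed as lower (-1.06, adjusted p = 0.0270). The ratio of Igf1r to Irs1 per kb was 2.80, 1.83 and 1.65 in the Dnmt1 KO libraries against 1.03, 1.42 and 0.709 in the controls, with no overlap. Irs2, the other main adaptor gene of muscle, had lower values in the same direction, 10.04, 11.04 and 9.85 in Dnmt1 KO against 16.1, 23.8 and 20.7 in controls, without overlap and without passing (log2 fold change -0.89, adjusted p = 0.213).

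**Figure D4:**
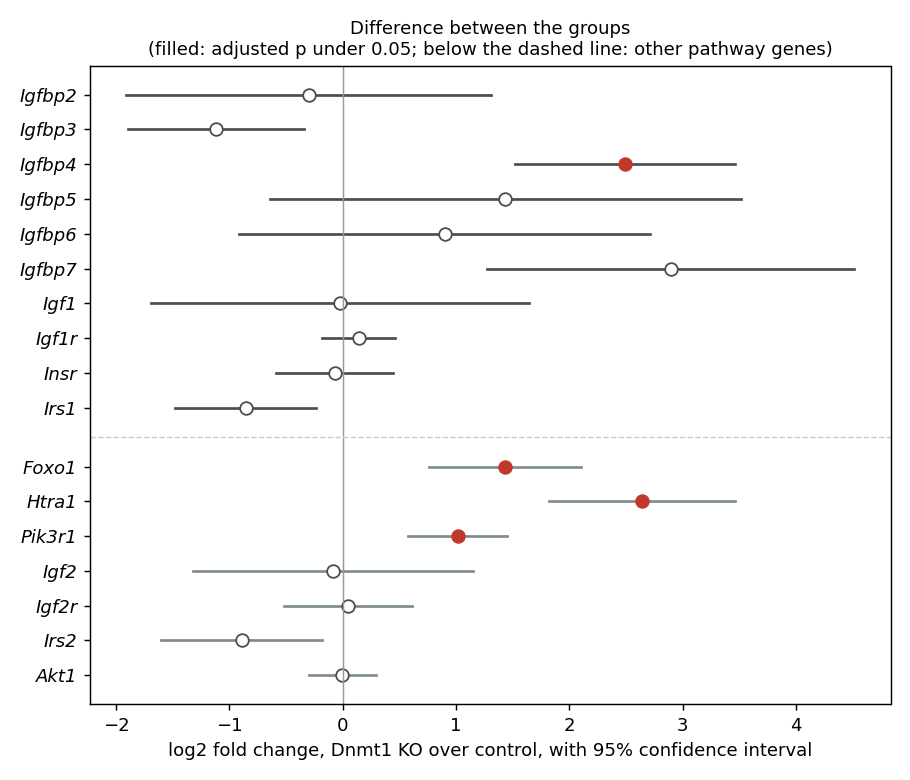
Log2 fold changes of Dnmt1 KO over control (x axis) with 95% confidence intervals for the 10 members (top) and 7 other pathway genes (below the dashed line), with filled points past an adjusted p of 0.05. Igfbp4 is the filled member at 2.49, Igfbp7 lies farther right at 2.89 with a wider interval, and Igf1r, Insr and Akt1 sit near 0 with short intervals.

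In absolute level per kb the members formed an uneven ladder. In the Dnmt1 KO libraries Igfbp7 averaged 40.2 ± 23.3, Igfbp5 30.7 ± 26.4 and Igfbp4 26.0 ± 9.50 scaled counts per kb, which do not differ beyond their spread, followed by Igf1r at 14.6 ± 1.17, Igfbp3 at 12.4 ± 5.23, Irs1 at 7.41 ± 2.33 and Insr at 4.96 ± 1.014 (SD, n = 3 each). Igfbp6, Igfbp2 and Igf1 came last, at 3.34 ± 3.20, 2.24 ± 1.97 and 0.425 ± 0.290. In the controls Igfbp3 led at 26.2 ± 6.52, followed by Igfbp5 at 14.8 ± 18.8, Irs1 at 13.4 ± 3.84 and Igf1r at 13.2 ± 0.761, which overlapped in spread. Igfbp7 at 6.06 ± 5.23, Insr at 5.19 ± 0.880 and Igfbp4 at 4.42 ± 2.57 came next and could not be ordered, above Igfbp2 at 2.32 ± 1.38, Igfbp6 at 1.90 ± 2.84 and Igf1 at 0.602 ± 0.749.

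Beyond the members, 84 further genes of the pathway were read as lists, of which 70 were tested, and 3 rose and 0 fell (limma). At an unadjusted p under 0.05, 14 were higher and 3 lower. The median log2 fold change of the 70 was -0.01, and 19 had groups that did not overlap. Of all genes tested, 1.76% were called, 15.5% had an unadjusted p under 0.05 (limma) and 21.2% had groups that did not overlap. Htra1, a secreted serine protease gene whose product carries an IGFBP-type domain and can cleave IGFBP5, had 54.5, 35.1 and 29.5 in Dnmt1 KO against 4.01, 7.62 and 4.84 in controls. It rose to 39.7 ± 13.1 in Dnmt1 KO cells, against 5.49 ± 1.89 in control cells (log2 fold change 2.64, SE 0.37, adjusted p = 0.00936). Every Dnmt1 KO value was several times the highest control. The call ended without Dnmt1 KO replicate 1 (adjusted p = 0.0726) or 2 (adjusted p = 0.0603). All 7 tested genes of this domain list had a positive log2 fold change, as did 52.4% of all genes tested. Their median was 0.48, 3 had an unadjusted p under 0.05, and Htra1 was the 1 that passed. Its relative Htra3 had 88.9, 90.3 and 46.8 in Dnmt1 KO against 2.01, 47.6 and 8.30 in controls and did not pass (adjusted p = 0.138).

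Of the PI3K and AKT kinases, 1 of 9 rose and 0 fell, where 1.76% of all genes tested were called. Pik3r1, the regulatory subunit that docks PI3K on phosphorylated IRS proteins, had 98.9, 95.3 and 83.7 in Dnmt1 KO against 43.1, 54.3 and 39.4 in controls, and the groups were far apart. Pik3r1 thus rose by 1.02 on the log2 scale (limma, SE 0.20, adjusted p = 0.0373). The catalytic subunit gene Pik3ca (142, 163 and 160 in Dnmt1 KO against 143, 142 and 149 in controls) and Akt1 (563, 538.8 and 604 in Dnmt1 KO against 576, 539 and 593 in controls) overlapped between the groups. Akt1 had a log2 fold change of -0.0018 with a 95% confidence interval from -0.30 to 0.30.

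Of the FOXO and GSK3 branch, 1 of 8 rose and 0 fell, where 1.76% of all genes tested were called. Foxo1, a transcription factor that AKT keeps out of the nucleus, had 54.5, 77.3 and 51.7 in Dnmt1 KO against 18.1, 32.4 and 17.3 in controls (log2 fold change 1.43, SE 0.30, adjusted p = 0.0468, limma). Foxo3, its relative, had 47.3, 38.1 and 65.2 in Dnmt1 KO against 28.1, 24.8 and 31.1 in controls, with no overlap, and did not pass (adjusted p = 0.178). Pik3r1 and Foxo1 each lost their calls with any library left out except control replicate 2 (adjusted p up to 0.166 for Pik3r1 and 0.223 for Foxo1), and Foxo1 also with TMM scaling (adjusted p = 0.0545), median-of-ratios scaling (adjusted p = 0.0512) or a pseudocount of 0.1 (adjusted p = 0.0652). Without the intensity trend the adjusted p was 0.07996 for Pik3r1 and 0.09305 for Foxo1.

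Among 16 genes that brake the insulin and IGF signal, 0 passed (limma), 7 were higher and 1 lower at an unadjusted p under 0.05, and the median log2 fold change was 0.32. Of all 12591 genes tested, 1352 were higher and 604 lower at an unadjusted p under 0.05. In 5 of the 16 every Dnmt1 KO library lay above every control, where 13.4% of all genes tested did. Among them, Ddit4, a stress-induced inhibitor of mTOR, had 54.5, 77.3 and 28.3 in Dnmt1 KO against 8.03, 18.1 and 15.9 in controls (log2 fold change 1.82, adjusted p = 0.0645). In the mTOR branch 0 of 9 passed (median -0.16, 0 at an unadjusted p under 0.05), and in the RAS and ERK branch 0 of 9 (median -0.19, likewise 0). None passed among 6 tested adaptors, 4 tested ligands and carriers, and 2 tested genes for IGFBP proteases and their inhibitors, with 2, 0 and 0 at an unadjusted p under 0.05. The IGFBP4 protease gene Pappa was at 0 in all 6 libraries, as were its relative Pappa2 and its inhibitor Stc1. Stc2, of the same list, was expressed in all 6, with 33.0, 17.1 and 23.4 in Dnmt1 KO against 31.1, 28.6 and 43.6 in controls. It did not pass (limma, adjusted p = 0.479).

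Several binding protein genes are also expressed by other cells of muscle, so markers of these cells are given beside them. For endothelial cells, which express Igfbp7 strongly, 10 markers summed to 20.1, 17.1 and 14.8 in Dnmt1 KO against 22.1, 6.67 and 17.3 in controls. Of the 6 tested, 0 passed and 3 had a positive log2 fold change. Tek, with 1.43, 2.01 and 3.69 in Dnmt1 KO against 0, 0 and 0.691 in controls, lay above every control. It reached the minimum value of 1 only in the Dnmt1 KO libraries. Kdr went the other way, with 1.43, 1.00 and 1.23 in Dnmt1 KO against 5.02, 1.90 and 2.07 in controls. The values of both genes rest on a few reads. The part of these cells in the Igfbp7 values was not tested. For fibro-adipogenic progenitors, the resident fibroblasts, 13 markers summed to 941, 1194 and 698 in Dnmt1 KO against 388, 693 and 411 in controls. All 8 tested had a positive log2 fold change, where 52.4% of all genes tested did. Of the 8, 2 passed, Col1a1 and Gsn, where 1.67% of all genes tested were called as higher. However, Gsn and Col3a1 made up most of the sum. The defining marker Pdgfra had 8.60, 6.02 and 1.23 in Dnmt1 KO against 9.03, 0.952 and 4.84 in controls, and Lum and Dpt were at 0 in all 6 libraries. The 10 macrophage markers summed to 12.9, 9.03 and 9.85 in Dnmt1 KO against 3.01, 1.90 and 4.15 in controls, with the leukocyte marker Ptprc at 0 in all 6. Of the 2 tested, Cd68 and Cd14, 0 passed (limma). Both lay above every control, where 13.4% of all genes tested did. Cd14 was at 0 in every control and reached the minimum value of 1 only in the Dnmt1 KO libraries. Values of both rest on a few reads. The 7 markers of pericytes and smooth muscle summed to 929, 1069 and 442 in Dnmt1 KO against 403, 1249 and 243 in controls, mostly from Acta2, with Kcnj8 at 0 in all 6. The part of the Gsn and Col1a1 difference in the Igfbp4 and Igfbp7 values was not tested.

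**Figure D5:**
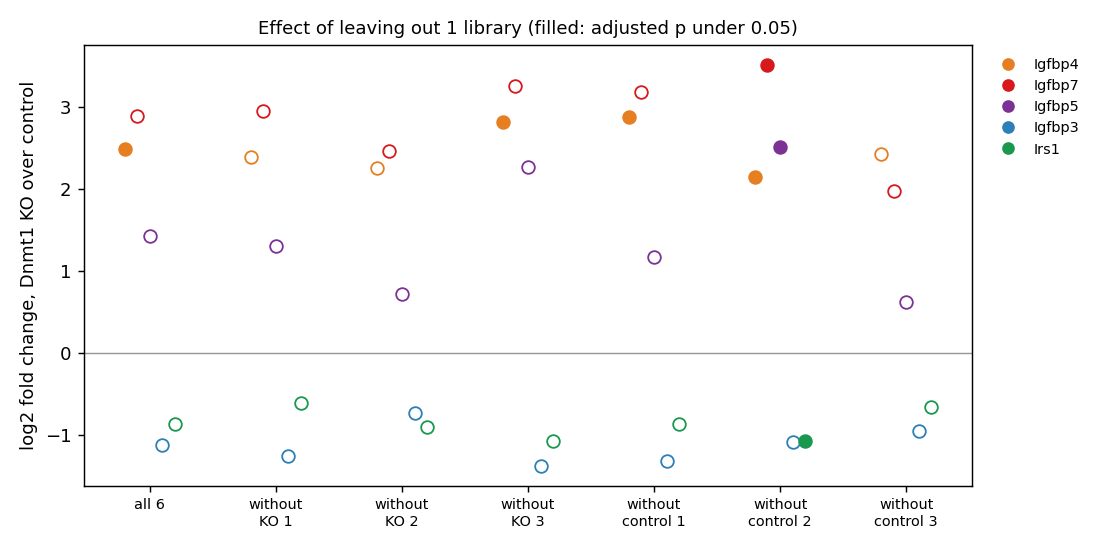
Log2 fold changes of Dnmt1 KO over control (y axis) for 5 members with all 6 libraries and with each library left out in turn (x axis), with filled points past an adjusted p of 0.05. No sign changes, and without control replicate 2 Igfbp4, Igfbp7, Igfbp5 and Irs1 are all filled.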

How the data were processed

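Polyadenylated RNA of 6 libraries was sequenced, 3 Dnmt1 KO and 3 control. TopHat, featureCounts and the mm10 build are named, per the submitters' processing notes. No source used here gives versions, the annotation, the strand setting or the scaling method. The deposited table holds a signal, read counts times 1 factor per library, with 100% of values whole multiples of that factor (tolerance 0.001). A p-value and a q-value per gene, from a test by the authors, are also deposited.

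From these, log2(value + 1) was fitted in limma (3.58.1, under R 4.3.3) using an intensity trend, no replicate block, genes of at least 1 in at least 3 libraries, and Benjamini-Hochberg adjustment over 12591 genes. Fold changes on this scale understate those of low genes. Alternatives covered scaling, filters, pseudocount, the replicate block, left-out libraries, and edgeR 4.0.16 and DESeq2 1.42.0 on whole reads recovered in 4 libraries. In the others, control replicate 1 and Dnmt1 KO replicate 2, 1 read was worth so nearly 1 unit that the recovery was not used. Scripts were tested on simulated data. Members and lists were chosen with earlier results of these data known. The genes named were the members, pathway genes past the threshold, fixed pathway genes, 1 of which is not reported here, and the 3 nearest to a called member. Others were chosen after their values were seen. Words of 50 bases shared with other genes made up at most 1.72% of those of any member (GENCODE M21).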

Additional observations from a re-analysis of the deposited data

How the results depend on the processing

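With TMM or median-of-ratios scaling, equal library totals, a pseudocount of 0.1, no filter or a minimum of 10, Igfbp4 was the 1 member past the threshold. Without the intensity trend 0 members passed (2 higher at an unadjusted p under 0.05) and 1 pathway gene did. The counts of members higher and lower in Dnmt1 KO ranged from 0 to 3 and from 0 to 1 over the libraries left out in turn, those of pathway genes higher from 0 to 8, and those of all genes from 12 to 659 higher and from 1 to 114 lower. The largest counts came without control replicate 2. On 4 libraries, edgeR called 0 members and 0 pathway genes (2 and 7 higher at an unadjusted p under 0.05) with 5 genes higher and 1 lower among all tested, DESeq2 0 and 0 (2 and 2) with 33 higher and 1 lower, and limma on the same libraries 0 and 0 (2 and 8) with 10 higher and 1 lower, where fewer samples entered. A pseudocount of 0.1 gave 121 genes higher and 6 lower. Chosen after seeing the data, leaving out both replicate 2 libraries gave 3 members higher and 1 lower, 7 pathway genes higher, and 445 genes higher and 84 lower. The contractile covariate gave 2 members, 8 pathway genes and 507 genes higher and 90 lower. The causes were not tested.

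The replicate numbers are shared by the groups but are not known to pair the libraries. Same-numbered libraries had correlations of -0.06, 0.22 and 0.31 between their deviations from the group means, and not every library correlated best with its own number. The replicate block gave 3 members (Igfbp4, Igfbp5 and Igfbp7), 7 pathway genes and 359 genes higher, and 76 genes lower. Depth limits Igfbp2, Igfbp6 and Igf1 most, whose values rest on few reads.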
